A study of Homo sapiens with 6 samples.

Results

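Described here are 10 genes of the circuit that switches the cell cycle transcription programme on and off, namely E2F1, E2F2, E2F3, E2F7, E2F8, MYBL2, FOXM1, RB1, RBL1 and RBL2. They were taken from tables of 60676 genes by matching gene identifiers to these symbols in the gencode 44 annotation. The genes belong together by family, but they were picked from earlier results of these libraries, namely from the fold changes of both depletions against untreated cells. The values that compare the conditions are therefore given as descriptions, with standard errors and intervals and with no p-value. RNA was sequenced from HT29, a human colon adenocarcinoma cell line whose genotype is labelled WT, after 48 h in 1 of 3 media. The untreated group received control medium, the Hdepl group received medium depleted of histidine, and the Wdepl group received medium depleted of tryptophan. Each group holds 2 libraries, 6 in all. The study used them to examine what an amino acid shortage does to cultured cancer cells.

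RPMI-1640 was the base of the medium without histidine and DMEM F-12 that of the medium without tryptophan, while the base of the control medium in this experiment is not given in the sources used here. Both depleted media received dialyzed fetal bovine serum, and the serum of the control medium is likewise not given. An effect of the base medium or the serum and an effect of the missing amino acid therefore cannot be told apart. Nothing in the labels says that the replicates were separate cultures, so standard errors and p-values measure the spread between these libraries, which may be technical. In RNA from whole cultures, fewer cells in a phase of the cell cycle and less of an RNA per cell cannot be told apart either.

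E2F proteins bind, together with a DP partner, to the promoters of genes needed to enter S phase. E2F1, E2F2 and E2F3 activate these genes, while E2F7 and E2F8, the atypical members that need no DP partner, repress them. The pocket proteins RB1, RBL1 (p107) and RBL2 (p130) bind E2Fs and hold their targets silent until cyclin-dependent kinases phosphorylate them. RBL1 and RBL2 also join the MuvB complex to form DREAM, which silences cell cycle genes in resting cells. In cycling cells MuvB exchanges its pocket protein for MYBL2 (B-MYB) and then recruits FOXM1, and these complexes drive the genes of G2 and mitosis.

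The libraries held 46390819 to 64388876 recovered reads. Values are normalized counts, in which the reads of all 6 libraries were brought to 1 scale with size factors. Fold changes against untreated cells come from the table of each depletion, on a log2(normalized count + 1) scale on which changes of weakly expressed genes come out too small. All 9 markers of colon epithelium reached 10 or more in both untreated libraries and 8 of 9 did after each depletion, the exception being CDX1. Their levels moved with the medium in both directions. In Hdepl and Wdepl, KRT20 was at 331.4% and 524.6% of untreated, CEACAM5 at 16.55% and 1524%, and CDX2 at 38.2% and 85.14%. EPCAM stayed at 112.5% and 96.54%. Of 12 leukocyte, stromal and endothelial markers, 8 to 10 were at 3 reads or fewer in each group. Their summed level was 133.3 to 134.4 in untreated cells, 42.46 to 50.87 in Hdepl and 77.9 to 90.65 in Wdepl.

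Several of these genes carry the letters of an E2F site in their own promoters, and the stretches that hold them are shown because these members make or bind the very factors that recognise such letters. RefSeq windows for GRCh38.p14, from 250 bases before to 50 bases after a start site, were found for 8 of the 10 genes, that is, for all but E2F8 and FOXM1. They were searched on both strands for the letters TTCCCGC, and likewise for TTGGCGC, then TTCGCGC, then also for TTGCCGC. Capitals mark the matches, and each stretch is written 5′ to 3′ along the strand of its gene, which is minus for all but E2F3.
E2F1, chr20:33686388-33686428: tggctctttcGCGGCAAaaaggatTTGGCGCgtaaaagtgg
E2F2, chr1:23531258-23531284: ggcacgacgtTTGGCGCtaaaaaaaaa
E2F3, chr6:20401816-20401871: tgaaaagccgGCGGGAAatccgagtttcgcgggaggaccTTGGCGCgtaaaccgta
E2F7, chr12:77065686-77065755: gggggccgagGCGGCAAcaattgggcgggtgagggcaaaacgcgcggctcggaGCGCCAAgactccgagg
RBL1, chr20:37095998-37096027: agattTTCGCGCgctTTGGCGCaggtggtt

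Matches were thus present in 5 of the 8 genes with a window. Counted by window, this was 5 of 10 windows of the members, against 13.0% of 35116 promoter windows of all genes. TTGGCGC, or its complement, occurred in all 5. The stretch of RBL1 ended 1 base before its start site, that of E2F1 ended 3 bases before and that of E2F3 ended 8 bases before, while that of E2F7 lay 117 to 186 bases upstream. No such letters were found in the windows of MYBL2, RBL2 and RB1, which all belong to starts inside the annotated gene. For MYBL2, 95 of the 250 bases before the start lie in annotated exons. Only these exact letters were searched, so a blank does not show that a site is absent. TTTGAA, the core of the CHR element through which MuvB binds DNA, was found in windows of E2F3 and RBL2 and in 15.2% of all windows. CCAAT was found in E2F1, E2F3, E2F7 and RBL2 and in 34.6% of all windows. A match is a string of letters and no evidence that a factor binds there.

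Among the activator E2Fs, E2F1 and E2F2 were lower after both depletions and lowest without tryptophan, while E2F3 was higher without histidine and lower without tryptophan. E2F1 (ENSG00000101412, chr20:33675477-33686385, minus strand), the activator best known for driving S phase entry, measured 2898 and 2769 normalized counts in untreated cells, 1005 and 1152 in Hdepl, and 270.0 and 239 in Wdepl. The groups did not overlap, with untreated highest and Wdepl lowest. With 2 libraries a group, separation from untreated is common. Both Hdepl libraries lay below both untreated ones in 43.5% of all genes tested and above them in 44.6%. In Wdepl these shares were 41.5% and 42.6%. The full order seen here, without overlap, was found in 8.01% of all genes. These shares stand beside each mention of overlap between groups below. The log2 fold change of E2F1 was −1.39 (SE 0.064, 95% interval −1.52 to −1.26) in Hdepl and −3.48 (SE 0.068, −3.62 to −3.35) in Wdepl, which left 38.1% and 8.98% of the untreated level.

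E2F2 (ENSG00000007968, chr1:23506438-23531233, minus strand) was the least abundant of the 10 genes, with 475 and 405 normalized counts in untreated cells, 141 and 133 in Hdepl, and 19.2 and 16.5 in Wdepl. The groups followed the order seen for E2F1, with no overlap. Each Wdepl value rests on 18 reads, for which the exact 95% Poisson intervals ran from 11.4 to 30.4 and from 9.77 to 26.0 normalized counts, counting error only. The log2 fold change was −1.66 (SE 0.115) in Hdepl and −4.55 (SE 0.177, 95% interval −4.90 to −4.20) in Wdepl. In Wdepl it lay beside MYBL2, whose interval it contains, and with a pseudocount of 8 it was −4.11, above MYBL2.

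E2F3 (ENSG00000112242, chr6:20401879-20493714, plus strand) measured 2060.3 and 1992 normalized counts in untreated cells, 2643 and 2687 in Hdepl, and 1508 and 1635 in Wdepl. Here the untreated libraries lay between the 2 depletions. The log2 fold change was 0.40 (SE 0.054, 95% interval 0.29 to 0.52) in Hdepl and −0.37 (SE 0.055, −0.48 to −0.27) in Wdepl. In the annotation 2 pseudogenes are named after it, and how reads that fit both were assigned is not given in the sources used here.

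**Figure D1:**
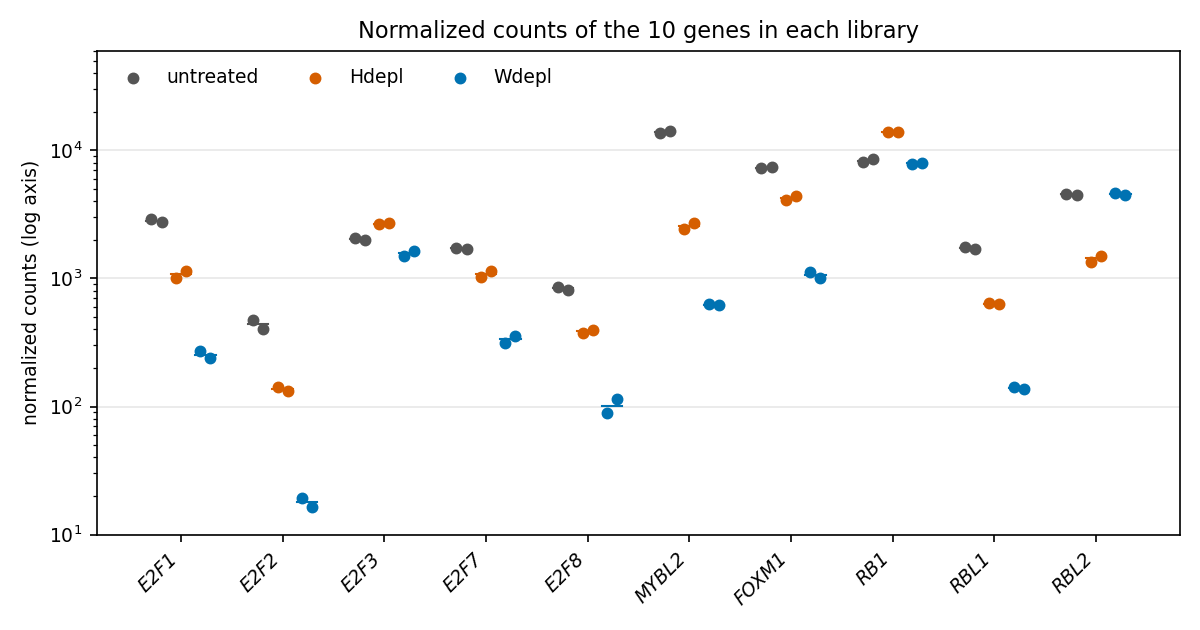
Normalized counts (log axis) of the 10 genes in each of the 6 libraries. Points are libraries, short lines are group means, and the untreated, Hdepl and Wdepl groups stand side by side for each gene. In 7 genes the points step down from untreated to Hdepl to Wdepl, for example from 13633 and 14256 to 635 and 617 in MYBL2, whereas E2F3 and RB1 are highest in Hdepl and RBL2 is low in Hdepl alone.

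Both atypical E2Fs, which repress the targets of the activators, were also lower after either depletion, more so without tryptophan. E2F7 (ENSG00000165891, chr12:77021248-77065569, minus strand) measured 1741 and 1688 normalized counts in untreated cells, 1034.5 and 1134.5 in Hdepl, and 314 and 355 in Wdepl. E2F8 (ENSG00000129173, chr11:19224063-19241620, minus strand) measured 854 and 819.6 in untreated cells, 376 and 396 in Hdepl, and 88.6 and 113.5 in Wdepl. The 3 groups did not overlap for either gene. The log2 fold change of E2F7 was −0.65 (SE 0.063) in Hdepl, the smallest decrease of any of the genes that were lower there, and −2.36 (SE 0.071) in Wdepl. That of E2F8 was −1.11 (SE 0.079) in Hdepl and −3.05 (SE 0.106) in Wdepl.

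MYBL2 and FOXM1, which act one after the other in the programme of G2 and mitosis, were the most abundant members per kb of exon in untreated cells, and both were lower after each depletion. MYBL2 (ENSG00000101057, chr20:43667019-43716495, plus strand) measured 13633 and 14256 normalized counts in untreated cells, 2415 and 2696 in Hdepl, and 635 and 617 in Wdepl. The groups lay far apart, and only 18.3% of the untreated level remained in Hdepl and 4.49% in Wdepl. Its log2 fold change was −2.44 (SE 0.055, 95% interval −2.55 to −2.33) in Hdepl, the lowest of the 10 genes there, and −4.48 (SE 0.050, −4.58 to −4.38) in Wdepl.

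FOXM1 (ENSG00000111206, chr12:2857680-2877174, minus strand) measured 7307 and 7371 normalized counts in untreated cells, 4065 and 4415 in Hdepl, and 1132 and 1014 in Wdepl. It kept 57.8% of the untreated level in Hdepl and 14.6% in Wdepl, again without overlap between groups. Its log2 fold change was −0.78 (SE 0.052, 95% interval −0.89 to −0.68) in Hdepl and −2.78 (SE 0.051, −2.88 to −2.68) in Wdepl. Exons of ITFG2 on the other strand cover 15.9% of the exonic bases of FOXM1, and whether strand was used in counting is not given in the sources used here. ITFG2 itself rose in Hdepl (log2 fold change 0.42, limma adjusted p = 4.84e-07) and fell in Wdepl (−0.28, limma adjusted p = 6.46e-06).

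The 3 pocket proteins each had a pattern of their own. RB1 (ENSG00000139687, chr13:48303744-48599436, plus strand), the retinoblastoma protein that restrains the activator E2Fs, measured 8105 and 8503 normalized counts in untreated cells, 13894 and 13800.1 in Hdepl, and 7846 and 8016 in Wdepl. Both Hdepl libraries were far above the others, and the Wdepl libraries lay just under the untreated ones. The log2 fold change was 0.75 (SE 0.050, 95% interval 0.64 to 0.85) in Hdepl, or 0.49 after quantile normalization. In Wdepl it was −0.07 (SE 0.047), with an interval of −0.17 to 0.02 that includes 0.

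RBL1 (ENSG00000080839, chr20:36996349-37095997, minus strand), the pocket protein that cycling cells make and itself a known E2F target, measured 1749.9 and 1692 normalized counts in untreated cells, 638 and 632 in Hdepl, and 143 and 136 in Wdepl. Its libraries stepped down as those of E2F1 did, with no overlap. The log2 fold change was −1.43 (SE 0.065) in Hdepl and −3.62 (SE 0.083) in Wdepl, and the level came to 36.9% and 8.12% of untreated. A gene on the other strand covers 3.58% of its exonic bases.

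RBL2 (ENSG00000103479, chr16:53433977-53491648, plus strand), the pocket protein that predominates in resting cells, measured 4592 and 4499 normalized counts in untreated cells, 1354 and 1511 in Hdepl, and 4645 and 4491 in Wdepl. Its Hdepl libraries stood apart, while the Wdepl libraries lay on both sides of the untreated ones. The log2 fold change was −1.66 (SE 0.057, 95% interval −1.78 to −1.54) in Hdepl and −0.00 (SE 0.047, −0.09 to 0.09) in Wdepl. RBL2 was the only member that was lower in Hdepl while its Wdepl libraries overlapped with the untreated ones. AKTIP, a neighbour whose exons with those of ENSG00000279344 cover 16.4% of the exonic bases of RBL2 on the other strand, had a log2 fold change of 0.03 in Hdepl (limma adjusted p = 0.666) and rose by 0.84 in Wdepl (limma adjusted p = 2.33e-30).

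**Figure D2:**
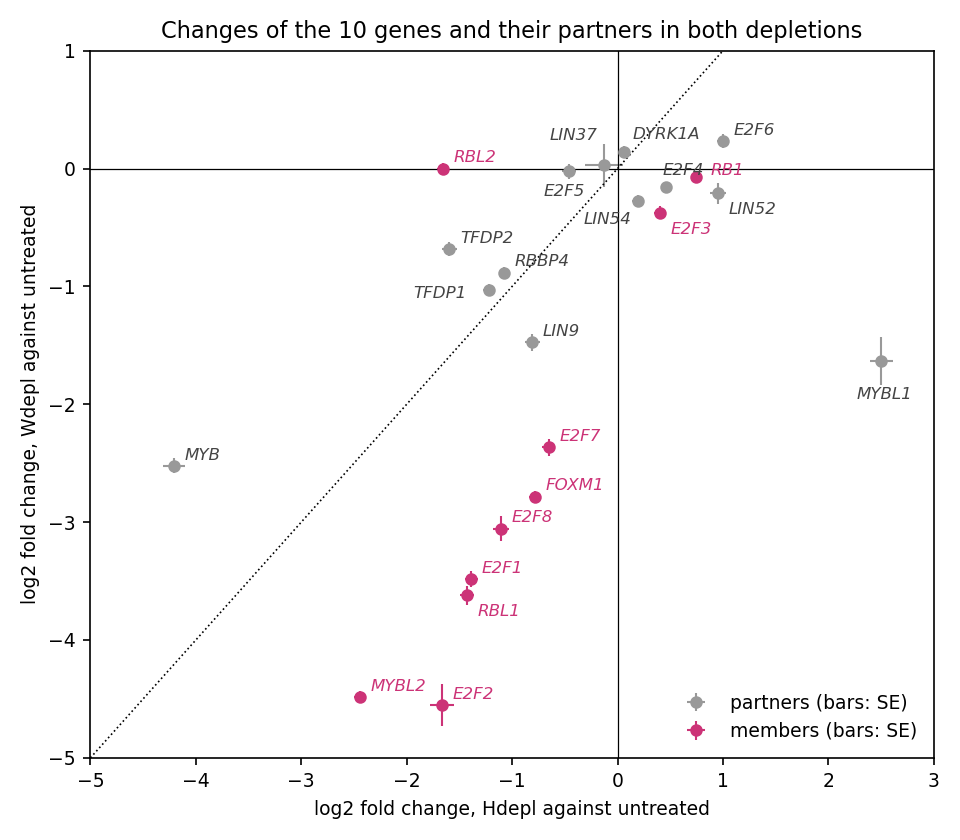
Log2 fold change against untreated in Hdepl (horizontal axis) and in Wdepl (vertical axis) for the 10 genes and for 13 partner genes. Bars are standard errors and the dotted line marks equal change in both. The 7 genes that are lower in both sit in the lower left below the line, with MYBL2 at −2.44 and −4.48, while RBL2 lies on the horizontal zero line and RB1 and E2F3 lie to the right of the vertical one.

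Counted over the 10 genes, 2 were past an adjusted limma threshold of 0.05 in the higher direction in Hdepl and 8 in the lower, where 39.1% and 38.2% of the 18288 genes tested were. With a log2 fold change of at least 1 as well, 0 were higher and 6 lower, against 16.4% and 16.1% of all genes. In Wdepl 0 were higher, 8 lower and 2, RB1 and RBL2, past neither limit, where 36.1% and 34.8% of 17960 genes passed in each direction. There 7 were lower by at least 1, beside 0 higher, against 10.4% and 10.0% of all genes. The members' median log2 fold change was −1.25 in Hdepl and −2.92 in Wdepl, while that of all genes was 0.01 in each. Both comparisons use the same untreated libraries and the genes were chosen with them in view, so nothing is read from these counts.

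Set directly against each other on the common scale, Hdepl exceeded Wdepl in 9 of the 10 genes and was below it in RBL2. Past the threshold, 38.7% of 18264 genes were higher in Hdepl and 38.0% were lower, and past the threshold with a log2 difference of at least 1 these were 16.0% and 15.8%, beside 7 and 1 members. The difference was 2.88 (SE 0.159) on the log2 scale for E2F2, and between 1.70 and 2.18 for E2F1, E2F7, E2F8, MYBL2, FOXM1 and RBL1. It was smaller for E2F3, at 0.76 (SE 0.050), and for RB1, at 0.80 (SE 0.039). For RBL2 it was −1.67 (SE 0.051). E2F7, E2F8, MYBL2, FOXM1, E2F1 and RBL1 had decreases in Hdepl that spanned −0.65 to −2.44, but the further step down to Wdepl differed among them by less than 0.5 on the log2 scale.

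Levels can be compared between genes only per length, here as normalized counts per kb of exon. In untreated cells the order was MYBL2 (5023 per kb), FOXM1 (1492), RB1 (1291), E2F1 (1053), RBL2 (560.4), E2F3 (390.4), RBL1 (289), E2F7 (273), E2F8 (202) and E2F2 (80.6), and the libraries of neighbours in this order did not overlap. In Hdepl RB1 came first (2152 per kb), followed by MYBL2 (921) and FOXM1 (862), whose libraries overlapped, as did those of RBL2 (177) and E2F7 (172). In Wdepl RB1 (1233 per kb), RBL2 (563) and E2F3 (303) came first. They were followed by MYBL2 (226) and FOXM1 (218), which overlapped, and RBL1 (23.5) overlapped with E2F8 (24.4) above E2F2 (3.27). MYBL2 was thus above RB1 before depletion and below it after each.

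The make-up of each family shifted with the medium. Of the summed level per kb of the activator E2Fs, E2F1 made up 69.1% ± 0.15 (SD, n = 2) in untreated cells, 42.6% ± 2.13 in Hdepl and 23.6% ± 2.56 in Wdepl. E2F3 made up 25.6% ± 0.269, 54.7% ± 1.90 and 75.5% ± 2.66, the largest share of this family after either depletion. E2F3 has windows at start sites 20401879 and 20403614, and counts per gene do not separate RNAs from these starts. E2F2 made up no more than 5.58% in any library. The summed level per kb itself was 1524 ± 52.2 in untreated cells, 939 ± 43.7 in Hdepl and 401 ± 8.88 in Wdepl. Of the atypical pair, E2F7 made up 57.4% ± 0.167 in untreated cells, 64.9% ± 0.654 in Hdepl and 68.6% ± 1.89 in Wdepl.

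Among the pocket proteins the share of RB1 was 60.3% ± 1.24 (SD, n = 2) in untreated cells, 88.4% ± 0.519 in Hdepl and 67.8% ± 0.858 in Wdepl. RBL2 made up 26.2% ± 0.731, 7.25% ± 0.553 and 31.0% ± 0.812 in the same order, and RBL1 made up 13.5% ± 0.504, 4.38% ± 0.034 and 1.29% ± 0.046. The pocket protein RNA was therefore mostly RB1 without histidine, and RB1 with RBL2 without tryptophan. Their sum per kb was 2140 ± 28.8 in untreated cells, 2435 ± 2.63 in Hdepl and 1819 ± 4.44 in Wdepl. MYBL2 held 91.6% ± 0.224 of the MYB family in untreated cells, 88.8% ± 0.853 in Hdepl and 73.2% ± 1.5 in Wdepl, of a sum per kb that was 5483 ± 187, 1037 ± 70.7 and 308 ± 12.5.

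Lists of other genes of the circuit, written by role, were tested with limma (adjusted over all genes). They too were written with earlier results of these libraries known, so their p-values are no independent evidence of a direction. Of the 5 remaining E2F and DP genes, 2 rose and 3 fell in Hdepl, and 1 rose and 3 fell in Wdepl. Of all genes 39.1% rose and 38.2% fell in Hdepl, and 36.1% and 34.8% in Wdepl. Both DP genes, whose products E2F1, E2F2 and E2F3 need in order to bind DNA, fell in both depletions. TFDP1 had a log2 fold change of −1.22 in Hdepl and −1.03 in Wdepl (limma adjusted p = 1.59e-16 and 4.08e-44), and TFDP2 of −1.59 and −0.68 (1.81e-16 and 5.25e-22). Among the repressor E2Fs, E2F4 and E2F6 rose in Hdepl, by 0.46 and 1.00 on the log2 scale (limma adjusted p = 6.37e-09 and 4.32e-14), and E2F5 fell by 0.46 (1.41e-06). Pseudogenes are named after E2F4 (1), E2F6 (4) and TFDP1 (3). Genes on the other strand cover 18.8% of the exonic bases of E2F5. The part of either in the counts was not tested. E2F4 was already the most abundant E2F per kb in untreated cells, with 43.3% of the level of all 8, and it reached 57.2% in Hdepl and 62.4% in Wdepl. In Wdepl the log2 fold change of E2F4 was −0.16 (limma adjusted p = 0.00177), a call that was lost without Wdepl replicate 1 (0.114) or Wdepl replicate 2 (0.0617), and with limma without the trend (0.0664).

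Of 8 genes that hold the MuvB subunits, the other MYB genes and DYRK1A, the kinase that promotes DREAM assembly, 3 rose and 3 fell in Hdepl, shares close to those of all genes. In Wdepl 6 fell, where 34.8% of all genes did, and DYRK1A alone rose, by 0.14 (limma adjusted p = 0.00536), a call lost without Wdepl replicate 2 (0.213) and with limma without the trend (0.101). The MuvB subunits LIN9 and RBBP4, the latter also part of other chromatin complexes, fell in both, LIN9 by 0.81 and 1.47 and RBBP4 by 1.08 and 0.88 on the log2 scale (limma adjusted p at most 3.51e-10). LIN52, the subunit that holds the pocket protein in DREAM, rose by 0.95 in Hdepl (limma adjusted p = 5.74e-11), opposite to RBL2. The relatives of MYBL2 went separate ways. MYBL1 (A-MYB) measured 120.2 and 114.4 normalized counts in untreated cells, 697 and 635 in Hdepl, and 35.2 and 39.4 in Wdepl, a log2 fold change of 2.50 in Hdepl and −1.64 in Wdepl (limma adjusted p = 1.66e-16 and 1.21e-12). MYB fell in both, with a log2 fold change of −4.21 in Hdepl, where MYBL2 had −2.44, and of −2.52 in Wdepl, where MYBL2 had −4.48 (limma adjusted p for MYB 6.05e-21 and 9.7e-74). The difference between MYB and MYBL2 was not tested.

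Of the kinases that phosphorylate the pocket proteins and their inhibitors, 14 of 15 could be tested, CCND2 being near 0. In Hdepl 7 rose and 5 fell, where 39.1% and 38.2% of all genes did, and in Wdepl 2 rose and 11 fell, where 36.1% and 34.8% did. The cyclin E genes CCNE1 and CCNE2, E2F targets that act on RB1, had log2 fold changes of −0.86 and −0.71 in Hdepl and of −2.14 and −2.86 in Wdepl (limma adjusted p at most 5.37e-06). Genes on the other strand cover 37.1% of the exonic bases of CCNE2. CDKN1A (p21), an inhibitor that keeps pocket proteins active, rose by 2.83 in Hdepl, from 1151 and 1216 normalized counts to 8591 and 8181, and by 0.23 in Wdepl (limma adjusted p = 5.95e-23 and 3.71e-04). CDKN2B (p15) rose by 1.89 and 1.40 (limma adjusted p = 3.91e-20 and 7.89e-58). The inhibitor genes CDKN2D and CDKN2A rose in Hdepl too, by 1.78 and 0.70 (limma adjusted p = 3.21e-16 and 8.49e-12). In Wdepl both fell, each with a log2 fold change of −0.52 (limma adjusted p = 8.32e-06 and 1.17e-18). Others of the list went the other way in Hdepl. The inhibitor gene CDKN2C (p18) fell there, with a log2 fold change of −1.31 (limma adjusted p = 2.29e-09), and CDKN1B (p27) had −0.43 (2.27e-07), while CCND1 (cyclin D1), which starts the phosphorylation of RB1, rose by 1.29 (5.6e-17), CCND3 by 0.70 (1.21e-11) and CDK6 by 0.32 (5.5e-06). In Wdepl CCND1, CCND3 and CDK6 fell, with log2 fold changes of −0.27, −0.55 and −0.19 (limma adjusted p = 1.21e-07, 1e-17 and 2.26e-04). CDKN2A, CDKN1B, CCND1, CCND3 and CDK6 were chosen for mention after their values were seen.

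Target genes of the activator E2Fs fell after both depletions, whereas targets of MYBL2 and FOXM1 fell in Wdepl and were mixed in Hdepl. Of 40 E2F targets of G1/S, 39 fell in Hdepl and 40 in Wdepl, where 38.2% and 34.8% of all genes did, with a median log2 fold change of −1.46 and −2.72, beside −1.39 and −3.48 for E2F1 and 0.40 and −0.37 for E2F3. Of 44 targets of G2/M, 28 fell and 9 rose in Hdepl with a median of −0.33, where MYBL2 stood at −2.44 and FOXM1 at −0.78, and 43 fell in Wdepl with a median of −2.08. Of all genes 39.1% rose in Hdepl. ANLN, needed for cytokinesis, and the securin PTTG1 rose by 1.09 and 0.91 in Hdepl (limma adjusted p = 8e-16 and 3.81e-14) and fell by 2.14 and 1.82 in Wdepl (1.77e-77 and 6.21e-68). TOP2A, the topoisomerase of chromosome condensation, fell in both, with log2 fold changes of −1.66 and −3.25 (limma adjusted p = 3.74e-19 and 1.05e-105). Both untreated libraries lay above both Hdepl libraries, and these above both Wdepl libraries, in 7 of the 10 members, in 37 of 40 G1/S targets, in 31 of 44 G2/M targets and in 8.01% of all 18264 genes. Nothing is read from these shares for the members or the lists, which were chosen with results of these libraries known. Counts of PRC1 and NUSAP1, of the G2/M list, are low, and other genes share 57.6% and 86.8% of their exonic bases on the same strand. The part of this overlap in their counts was not tested.

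**Figure D3:**
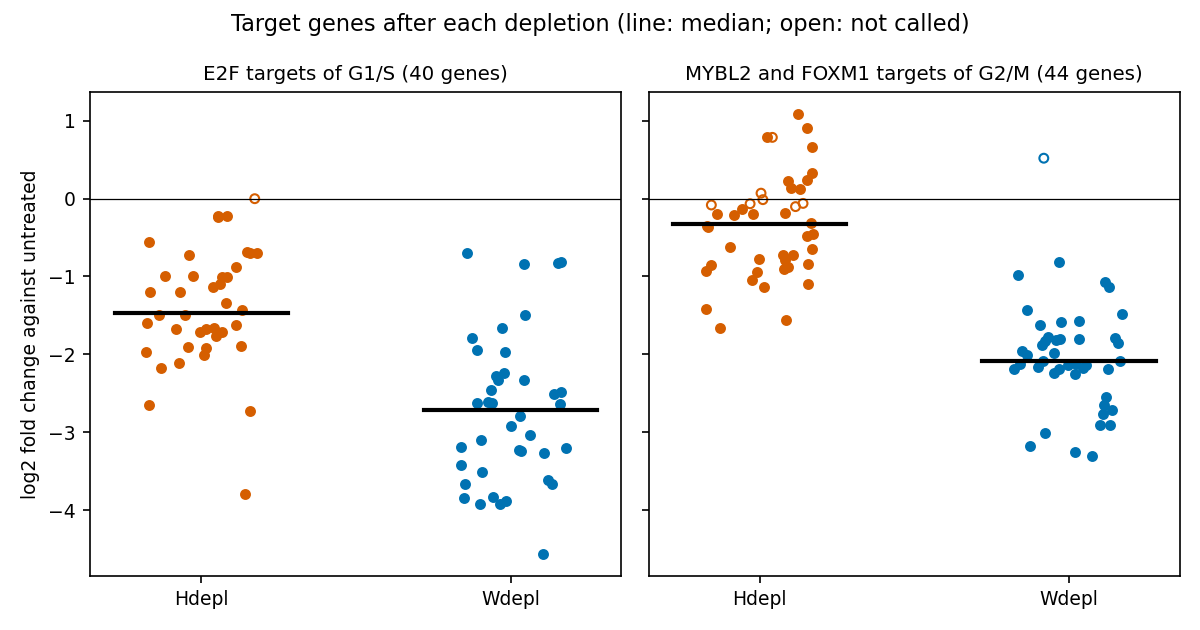
Log2 fold change against untreated of each E2F target of G1/S (40 genes) and each MYBL2 and FOXM1 target of G2/M (44 genes) in Hdepl and in Wdepl. Points are genes, open points did not pass an adjusted p of 0.05, and black lines are medians, which stand at −1.46 and −2.72 for G1/S and at −0.33 and −2.08 for G2/M.

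The promoter letters also set the 2 target lists apart as a description. E2F letters were in 71.4% of the windows of the G1/S list and 31.2% of those of the G2/M list, beside 5 of 10 member windows. TTTGAA was in 2.04% and 64.6%, and CCAAT in 59.2% and 77.1%.

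For each member the genes with the nearest pair of log2 fold changes were sought among 11009 protein-coding genes. E2F1 lay nearest to CDCA5 (distance 0.131 on the log2 scale), CHEK1 (0.142) and the fellow member RBL1 (0.145), and RBL1 nearest to CORO1A (0.137) and E2F1. MYBL2 had the most distant neighbours, EXO1 (0.301) and PCLAF (0.376). FOXM1 lay nearest to ARHGAP33 (0.00611) and CCNE2 (0.105), E2F2 to NRM (0.149), E2F7 to RFC2 (0.0553) and E2F8 to NUDT1 (0.0687). RB1, E2F3 and RBL2 had MITD1 (0.0124), SAYSD1 (0.00745) and ZNF30 (0.015) as nearest genes. By the third-nearest gene these members lay in denser ground, at 0.0249, 0.012 and 0.0344. For every other member, FOXM1 included, that distance was 0.135 or more.

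E2F1, MYBL2 and RBL1, 3 of the members, lie on chromosome 20. The other genes tested on that chromosome had a median log2 fold change of −0.02 in Hdepl (496 genes) and 0.02 in Wdepl (489 genes), and 16.5% and 11.5% of them were lower by at least 1. Those values are close to the medians and shares of all genes given above, while the 3 members were between −1.39 and −2.44 in Hdepl and between −3.48 and −4.48 in Wdepl.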

How the data were processed

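The members and gene lists were chosen with earlier results of these data known. Per the labels and the study's methods, the authors made stranded polyA libraries with molecular identifiers in the adapters, aligned paired reads with STAR 2.7.10a to GRCh38, counted them on gencode 38 exons with htseq-count (HTSeq 2.0.5) and divided by DESeq2 size factors. The deposited signal is this normalized count, in a table per depletion, each normalized separately. How identifiers, strand and reads with several positions were treated is not given in the sources used here.

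Reads were recovered from the step shared by all genes of a library (100% of values whole within 0.01) and rescaled together for levels and for Hdepl against Wdepl. Genes with a mean of at least 10 were tested with limma 3.58.1 (R 4.3.3, trend on, two-sided, Benjamini-Hochberg) on log2(normalized count + 1), within each table against untreated cells. All members and partner genes are named, and of other lists up to 3 increases and decreases per depletion with a mean of at least 100 and no overlap. Not every gene the rule selects is described. Gencode 44 matched 60357 of 60676 identifiers. The code was tested on simulated data. Replicates of no group were identical. Further work used Python 3.11.15, with pandas 2.3.3, numpy 2.4.6 and plots by matplotlib 3.10.9. As alternatives, the pseudocount was set to 0.5 or 8, the filter to none or a mean of 50, and the trend was dropped. Others were quantile normalization, edgeR 4.0.16 and DESeq2 1.42.0 on recovered reads, the replicate number as a block, 1 fit of all 6 libraries, a fold limit, and leaving out each library in turn.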

Additional observations from a re-analysis of the deposited data

Results flagged for a closer look

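Several results differed between the histidine and tryptophan depletions, given here as the log2 level in Hdepl minus that in Wdepl. For E2F3 (0.76) and RB1 (0.80) every Hdepl library lay above and every Wdepl library below the untreated ones, and no test of this difference is read for these members, which were picked from these libraries. For RB1 the 95% interval of the log2 fold change in Wdepl, −0.17 to 0.02, includes 0, and in Wdepl 41.5% of all genes tested had both libraries below the untreated ones.

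Of the partner genes and the genes named by the rule for other lists, those given here passed limma's adjusted threshold in the test of Hdepl against Wdepl, which LIN37 did not. Among those given here 8 had also been called in opposite directions against untreated cells, namely E2F4 (0.60), LIN52 (1.15), LIN54 (0.45), MYBL1 (4.12), CDKN2D (2.28), ANLN (3.21), PTTG1 (2.71) and NDC80 (1.92). The call of LIN52 in Wdepl was lost without Wdepl replicate 1 (adjusted p = 0.0713), Wdepl replicate 2 (0.169) or untreated replicate 2 (0.117), and also under quantile normalization (0.293), with DESeq2 (0.146) and with limma without the trend (0.0512).

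Among other partners and regulators the difference was −0.45 for E2F5, 0.75 for E2F6, −0.21 for TFDP1, −0.93 for TFDP2, 0.65 for LIN9, −0.21 for RBBP4, −1.70 for MYB and −0.10 for DYRK1A. That of DYRK1A lost its call without either Hdepl or either Wdepl library (adjusted p from 0.072 to 0.303), with no filter (0.0903), with DESeq2 (0.0964) and with limma without the trend (0.132). It was 1.50 for CDKN2C, 1.26 for CCNE1, 2.13 for CCNE2, 2.59 for CDKN1A and 0.47 for CDKN2B. Among G1/S targets it was −0.61 for CDCA7, 0.87 for ORC1, 1.26 for TYMS, 3.67 for CDC45 and 2.77 for MCM10. Genes on the other strand cover 47.9% of the exonic bases of TYMS. Among G2/M targets the difference was 1.57 for TOP2A, 1.43 for AURKB, 0.58 for INCENP, 2.94 for CDCA3 and 3.05 for UBE2C. With 2 libraries a group, no search for an outlying library could be made.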

How the results depend on the processing

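No called value changed sign under any alternative. RBL2 in Wdepl, at −0.00 and not called, ranged from −0.04 to 0.02. Of the 112 listed genes, 21 rose and 78 fell in Hdepl, 4 rose and 103 fell in Wdepl, and 96 were higher and 10 lower in Hdepl than in Wdepl. With a log2 fold change of at least 1 required as well, 7 rose and 39 fell in Hdepl, 1 rose in Wdepl and 1 was lower in Hdepl than in Wdepl. The other 116 recomputed counts stayed within 1.5 times, libraries left out included. Of the members' log2 fold changes under alternatives, 413 moved by less than the replicate spread and 17 by more. The widest range was −4.67 to −4.11 for E2F2 in Wdepl, where MYBL2 (−4.51 to −4.45) was the lower of both with a pseudocount of 8 and without untreated replicate 1 or Wdepl replicate 2, and RB1 in Hdepl ranged from 0.49 to 0.78. Of other named genes, 18 calls were lost and 6 gained, in E2F4, LIN52, DYRK1A and UBE2C.

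Deviations of same-numbered libraries correlated at 0.117 (untreated with Hdepl), −0.0527 (untreated with Wdepl) and −0.104 (Hdepl with Wdepl). With 2 libraries a group, these values cannot show whether same-numbered libraries were prepared together. The main fits used no pairing. With the replicate block, 22 listed genes rose and 79 fell in Hdepl, 4 rose and 103 fell in Wdepl, and 97 were higher and 10 lower in Hdepl than in Wdepl. With 2 libraries a group, E2F2 at 18 reads in each Wdepl library is the member that depth limits most.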
